A study of Mus musculus with 3 samples.

Results

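The genes described here are 47 genes that carry cells through replication and mitosis: cyclins and their inhibitors, replication factors, mitotic kinases, kinetochore and checkpoint proteins, and spindle proteins. They were chosen by name, but with earlier results of these data known. Each was read from the probe set of its own symbol with the highest mean over the arrays. Of the 47, 46 had such a probe set, out of 18193 genes on the array, and Ccnb1 was not analysed here. All 46 were bright enough to enter the test across 11885 genes.

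The tissue was follicle-associated epithelium of mouse small intestine, the cell layer that covers the lymphoid follicles and samples antigen through M cells. There was 1 array from wild type C57BL/6 mice, and there were 2 arrays from C57BL/6 mice depleted of RBP-J by VillinCre-Rbpjflox/flox, all untreated, with no age given. RBP-J is the DNA-binding partner of Notch receptors. Villin drives Cre in intestinal epithelium, so other cells in the preparation keep an intact gene. The labels number the depleted samples, FAE KO1 and FAE KO2, written KO1 and KO2 here. No label says that KO1 and KO2 are different mice. The p-values rest only on the spread between these samples, pooled over genes, and this spread may be technical. Whether the wild type mice carried Cre or a floxed allele is not given.

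Dividing cells of the intestinal epithelium lie in the crypts, and cells leave the cycle as they move onto the villus or the follicle dome. D cyclins and E cyclins drive the entry into S phase, in which E2F proteins switch on the replication genes. The MCM helicase is loaded onto origins before S phase, and cyclin B with CDK1 then drives mitosis, which ends when APC/C destroys the mitotic cyclins. Notch signalling is known to keep crypt progenitors dividing. In tissue RNA, fewer dividing cells and less RNA per dividing cell cannot be told apart.

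Values are intensities in multiples of each array's median. Differences are on the log2 scale after adding a pseudocount of 0.248, depleted minus wild type, so folds of dim genes are understated. Over all genes tested the median difference was -0.003 for KO1 and 0.22 for KO2. The KO2 values were not corrected for this shift. It was 0.15 without the intensity filter and 0.25 with a filter at the 60th percentile, so it need not be the same for every gene. Both comparisons share the wild type array, and none of the values from a single depleted array has a replicate check. The brightest probe set of Rbpj read 7.15 in wild type, 2.72 in KO1 and 5.74 in KO2, and limma did not call it (adjusted p = 0.9997). The sources used here do not say whether the probes lie within the deleted part. The sex-linked genes split the arrays as the genotypes do, with Xist at 0.297 in wild type against 42.8 and 43.4 and Eif2s3y, on the Y chromosome, at 20.6 against 0.122 and 0.056, so that genotype and sex cannot be told apart. The epithelial marker Epcam read 109, 129 and 153, and Gp2, a receptor on M cells, 19.8, 9.90 and 32.6, in the order wild type, KO1 and KO2. The same order holds for every set of 3 values below. Gp2 was chosen after its values were seen, and its KO1 difference (-0.98) was the lowest of 12 M cell and follicle epithelium markers. Their medians were 0.08 in KO1 and 0.61 in KO2. Wild type lay below both depleted arrays for 7 of these 12, against 39% of all genes tested.

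No cell cycle gene was called different between depleted and wild type epithelium. The test (limma, adjusted p under 0.05 over all genes) called 0 of the 46 genes, where 0.0841% of all genes tested were called, and the limma adjusted p was 0.9997 for each of the 46. At an unadjusted p under 0.05 there were 2 of the 46, Ccne1 and Cdc6, against 2.27% of all genes. The depleted arrays lay on opposite sides of wild type for 25 of the 46 genes. KO1 was lower and KO2 higher for 22 of the 46, where 30.7% of all genes showed that order. The reverse order held for 3 of the 46, against 10.8% of all genes.

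Wild type lay below both depleted arrays for 18 of the 46 genes, against 39% of all genes tested. It lay above both for 3, which were Cdc6, Mcm5 and Anln, against 19.5% of all genes. The mean difference from wild type was larger than the gap between the depleted arrays for 14 of the 46 genes, against 37% of all genes. For the other members the replicates of 1 genotype differed by at least as much as the genotypes did.

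**Figure D1:**
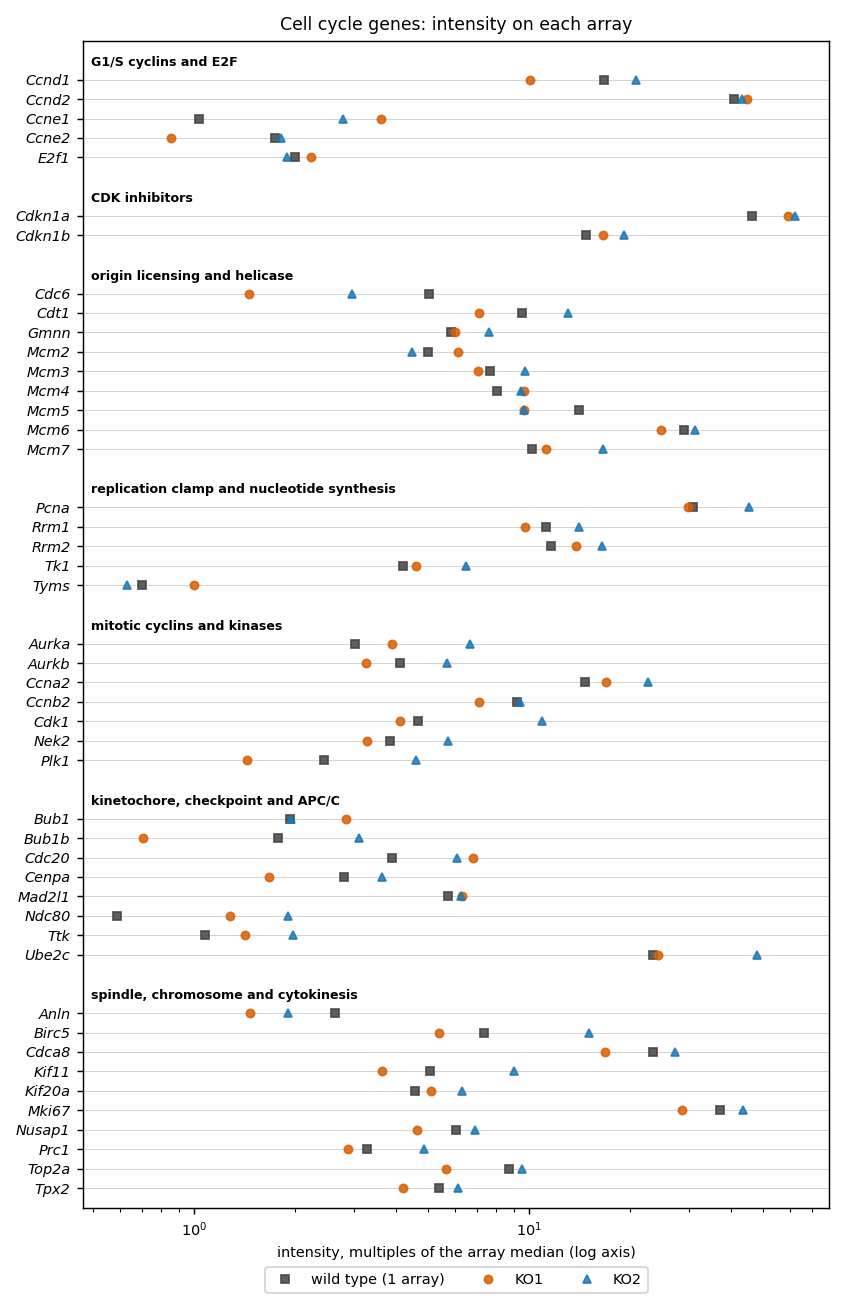
Intensity of each of the 46 cell cycle genes (log axis, multiples of the array median) on the wild type array (squares), KO1 (circles) and KO2 (triangles), grouped by role. For Mki67, at 37.2, 28.6 and 43.5, as for 21 others, wild type lies between a lower KO1 and a higher KO2.

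Mki67, the gene of the proliferation antigen Ki-67, is the usual marker of cycling cells. It read 37.2 in wild type, 28.6 in KO1 and 43.5 in KO2. The depleted mean was 36.1 ± 10.5 (SD, n = 2), and the log2 difference from wild type was -0.08 (SE 0.42). Wild type therefore lay inside the range of the depleted arrays. Top2a, the topoisomerase that untangles chromosomes before mitosis, showed the same order at 8.73, 5.66 and 9.56. Pcna, the sliding clamp of DNA polymerases, read 30.9, 29.9 and 45.4, with the wild type and KO1 close together and KO2 above both.

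Entry into S phase was represented by 5 genes. Ccne1, the gene of cyclin E1, which activates CDK2 at the start of S phase, gave the largest mean difference of all the members. It read 1.04 in wild type, 3.62 in KO1 and 2.79 in KO2, a depleted mean of 3.20 ± 0.583 (SD, n = 2). Both depleted arrays lay above wild type, and the log2 difference was 1.42 with an SE of 0.53 (limma adjusted p = 0.9997). Ccne1 was the only member at least 2-fold higher in both depleted arrays, where 0.841% of all genes tested were. No member was at least 2-fold lower in both, against 0.488% of all genes. A dimmer probe set of Ccne1 read 1.552, 1.961 and 1.995, which is a smaller difference in the same direction (0.30 and 0.32). The brighter one is of a type open to cross-hybridization (_x_at), and without _x_at and _s_at probe sets, with the mean of probe sets or with a pseudocount of 1, no member was 2-fold from wild type in both arrays.

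Its paralog Ccne2 did not share that order. It read 1.75, 0.853 and 1.83, with KO1 low and KO2 level with wild type. Ccnd1, the gene of cyclin D1, which links growth signals to the cycle, read 16.7, 10.1 and 20.8, so that wild type lay between the depleted arrays. Its other probe sets gave the same signs, at -0.59 and -0.09 in KO1 and 0.33 and 0.18 in KO2. Ccnd2, a second D cyclin, read 41.0, 44.7 and 43.2, with the 3 arrays close together, and its other probe sets lay on both sides of wild type. E2f1, which activates replication genes, read 1.999, 2.231 and 1.901 on its brightest probe set. The other one read 2.14, 1.41 and 1.49, below wild type in both depleted arrays (-0.53 and -0.46). The median log2 difference of these 5 genes was 0.12 in KO1 and 0.07 in KO2.

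The CDK inhibitors were higher in both depleted arrays by small amounts. Cdkn1a, the gene of p21, which is induced in stressed cells and in cells leaving the cycle, read 46.3, 59.3 and 62.4. The depleted arrays were close to each other, at 60.9 ± 2.19 (SD, n = 2), and the log2 difference of 0.39 (SE 0.40) did not pass the test. A dimmer probe set of Cdkn1a read 22.3, 22.5 and 51.8, a log2 difference of 0.01 in KO1 and 1.21 in KO2. Cdkn1b, the gene of p27, read 14.8, 16.6 and 19.2, and its other probe set gave -0.13 and 0.77. These KO2 values were not corrected for the KO2 median of 0.22 over all genes tested.

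Origin licensing held the member furthest below wild type. Cdc6, the loader that places the MCM helicase on origins, read 5.04 in wild type, 1.46 in KO1 and 2.96 in KO2. Both depleted arrays were below wild type, at 2.21 ± 1.06 (SD, n = 2), and the log2 difference was -1.18 with an SE of 0.51 (limma adjusted p = 0.9997). Mcm5, a helicase subunit, read 14.1, 9.69 and 9.66, so that the depleted arrays were nearly equal and wild type stood above them (log2 difference -0.53, SE 0.47). The brightest probe set of Mcm5 is of the _x_at type. A dimmer one that is not of that type gave the same picture at 3.81, 2.54 and 2.75.

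The other helicase subunits, which work in the same ring, gave several orders among the arrays on their brightest probe sets. Those of Mcm4, Mcm6 and Mcm7 are of the _x_at type open to cross-hybridization, and that of Mcm3 is of the _s_at type. Mcm2 read 5.01, 6.15 and 4.47, Mcm3 7.65, 7.04 and 9.73, and Mcm4 8.05, 9.65 and 9.49. Mcm6 read 29.1, 24.8 and 31.3, and Mcm7 10.2, 11.3 and 16.7. None of these reached a 2-fold difference from wild type, and differences between subunits were not tested. Dimmer probe sets did not always share the sign. One of Mcm6 read 6.41, 3.36 and 6.20, below wild type in both as Mcm5 was. One of Mcm2 read 1.65, 1.36 and 3.16, the reverse of the brightest, and one of Mcm4 gave -0.27 in KO1 where the brightest gave 0.25. The 5 probe sets of Mcm3 lay between -0.24 and 0.66 in KO1, and all were above wild type in KO2. The 4 of Mcm7 were also all above wild type in KO2, by 0.50 to 0.95, but 3 of them were below it in KO1. Cdt1, which loads the helicase together with CDC6, read 9.56, 7.08 and 13.1, with wild type between the depleted arrays, while a dimmer probe set read 2.01, 2.71 and 3.78. Gmnn, the gene of geminin, which blocks CDT1 after S phase has begun, read 5.84, 6.01 and 7.58. Over the 9 licensing genes the median log2 difference was -0.11 in KO1 and 0.23 in KO2, against -0.003 and 0.22 over all genes tested.

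The upstream sequences of Cdc6 and Mcm5, the lowest licensing genes, and of Cdk1 and Ube2c, mitotic genes that were high in KO2, are printed to show which cell cycle motifs they hold. Each is the 250 bases before the start of transcription from RefSeq (GRCm38.p6), 5′ to 3′ on the gene's strand. Capitals mark the CCAAT box, the CHR element TTTGAA and E2F letters (TTTGGCGC or TTTCGCGC or TTTCCCGC or TTTGCCGC), each on either strand. The stretches are chr11:98907901-98908150 (plus strand) for Cdc6, chr8:75109259-75109508 (plus strand) for Mcm5, chr10:69352913-69353162 (minus strand) for Cdk1 and chr2:164769679-164769928 (plus strand) for Ube2c.
Cdc6: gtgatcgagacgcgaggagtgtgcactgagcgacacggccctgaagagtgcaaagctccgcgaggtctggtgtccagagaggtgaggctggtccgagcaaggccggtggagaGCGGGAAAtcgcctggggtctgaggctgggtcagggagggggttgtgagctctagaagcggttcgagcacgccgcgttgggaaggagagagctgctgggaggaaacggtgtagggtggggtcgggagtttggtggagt
Mcm5: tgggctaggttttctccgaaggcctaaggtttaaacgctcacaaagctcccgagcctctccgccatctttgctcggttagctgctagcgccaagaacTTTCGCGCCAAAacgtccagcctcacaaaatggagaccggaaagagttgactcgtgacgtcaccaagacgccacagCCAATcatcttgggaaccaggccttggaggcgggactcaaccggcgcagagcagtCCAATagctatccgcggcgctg
Cdk1: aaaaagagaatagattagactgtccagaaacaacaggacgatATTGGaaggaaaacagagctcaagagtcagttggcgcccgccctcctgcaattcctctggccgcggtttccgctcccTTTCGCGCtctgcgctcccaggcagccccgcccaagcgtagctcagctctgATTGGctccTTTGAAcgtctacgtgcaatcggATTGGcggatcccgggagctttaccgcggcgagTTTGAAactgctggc
Ube2c: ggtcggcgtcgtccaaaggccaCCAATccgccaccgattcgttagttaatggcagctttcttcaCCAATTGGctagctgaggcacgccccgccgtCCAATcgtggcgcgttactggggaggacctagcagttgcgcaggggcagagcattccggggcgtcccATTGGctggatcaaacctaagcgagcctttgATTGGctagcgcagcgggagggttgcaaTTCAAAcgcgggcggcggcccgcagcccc

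Cdc6 and Mcm5 hold E2F letters, which in Mcm5 match on both strands over the same stretch. Mcm5 also holds 2 CCAAT boxes, and Cdk1 holds E2F letters, CCAAT boxes and CHR elements together. Ube2c holds CCAAT boxes and a CHR element with no E2F match, and CCAAT overlaps its own reverse complement once there. Of the 46 genes, 37 had an upstream sequence in the table, with 40 sequences in all. A CCAAT box, the site of NF-Y, was in 67.5% of these 40, against 33.8% of all 32851 upstream sequences. The E2F letters were in 5 of the 40, the genes Cdc6, Cdk1, Mcm5, Mcm6 and Mcm7, or 12.5% against 1.86% of all. The CHR element, bound by the DREAM and MuvB complexes, was in 9 of the 40 (22.5% against 16%). Letters of the RBP-J site, GTGGGAA, were in 3 sequences, 1 of Mcm3 and 2 of Prc1 (7.5% against 5.42%). Such matches are letters in a window and not measured binding.

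The genes of the replication fork and of nucleotide supply were higher in KO2 than in KO1, except for Tyms. KO2 was above KO1 for 66.9% of all genes tested. Rrm1 and Rrm2 encode ribonucleotide reductase, which makes deoxynucleotides. Rrm1 read 11.2, 9.72 and 14.1, and Rrm2 read 11.6, 13.8 and 16.6. Other probe sets of Rrm2 gave -0.36 and -0.69 in KO1 where the brightest gave 0.24, so its direction there depends on the probe set. Tk1, the S phase thymidine kinase, read 4.21, 4.59 and 6.47. Tyms, thymidylate synthase, was dim on this array, at 0.701, 0.999 and 0.630, and its probe sets did not give the same sign. The median log2 difference of the 5 genes was 0.12 in KO1 and 0.50 in KO2.

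The mitotic cyclins and kinases were higher in KO2 than in KO1. Cdk1, the kinase that drives mitosis, read 4.66 in wild type, 4.11 in KO1 and 10.9 in KO2. KO2 stood alone, more than 2-fold above both others, and the depleted mean was 7.51 ± 4.81 (SD, n = 2). The log2 difference from wild type was 0.51 (SE 0.49). Plk1, the Polo kinase of spindle assembly, read 2.44, 1.44 and 4.61, so that wild type lay between the depleted arrays. Aurkb, the kinase of the chromosomal passenger complex, gave the same order at 4.12, 3.27 and 5.70, as did Nek2, a centrosome kinase, at 3.86, 3.30 and 5.73.

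Aurka, the spindle pole kinase, was higher in both depleted arrays at 3.02, 3.89 and 6.65 (log2 difference 0.71, SE 0.50, limma adjusted p = 0.9997). A dim probe set of Aurka, at 0.820, 0.500 and 0.663, went the other way. Ccna2, the cyclin of S phase and early mitosis, read 14.686, 16.965 and 22.640, above wild type in both and with its other probe set at 0.36 and 0.30. Ccnb2, a B cyclin, read 9.19, 7.11 and 9.43, with KO2 level with wild type. The 7 genes had a median log2 difference of -0.21 in KO1 and 0.62 in KO2. All 7 were higher in KO2 than in KO1, against 66.9% of all genes tested. The same held for all 10 spindle, chromosome and cytokinesis genes.

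**Figure D2:**
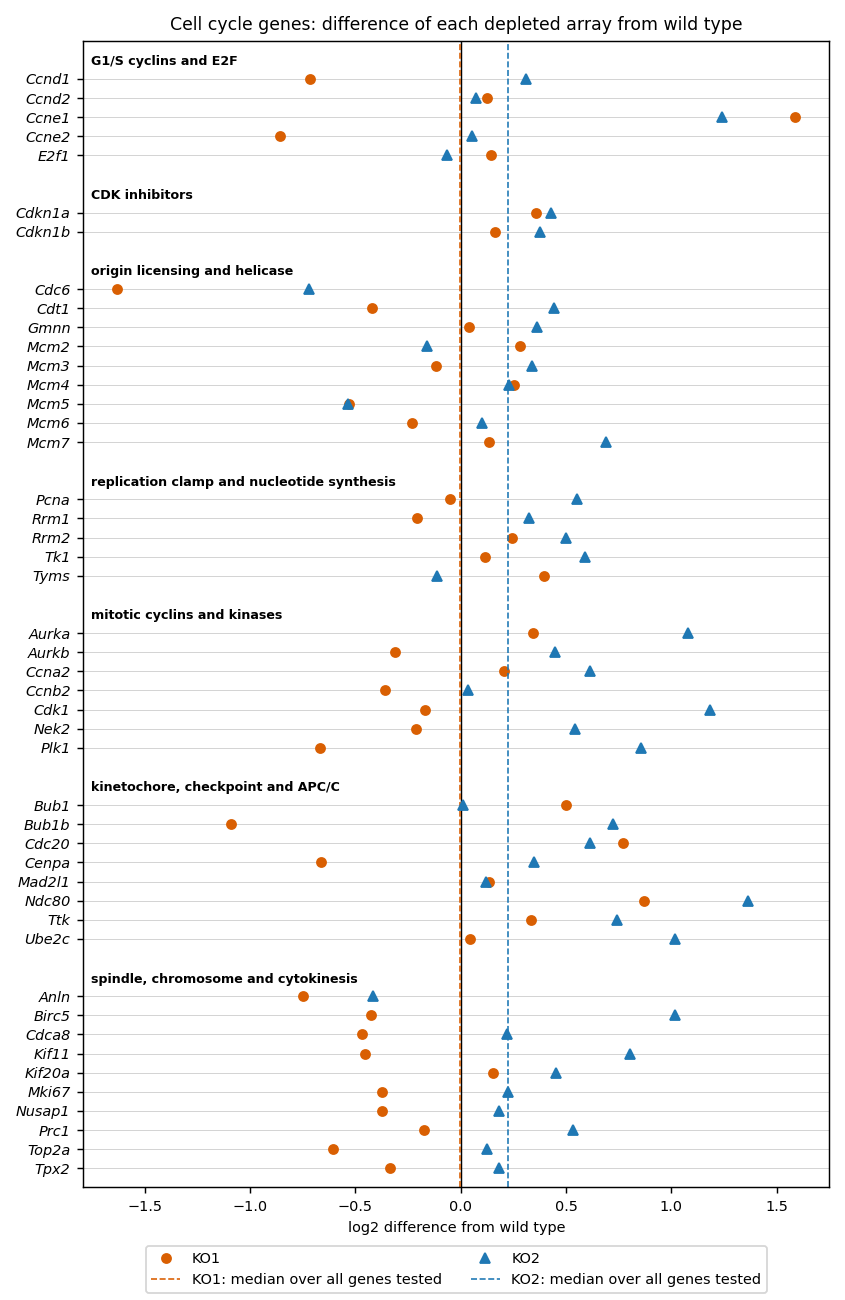
Log2 difference from wild type of each cell cycle gene in KO1 (circles) and KO2 (triangles), with the median over all genes tested as dashed lines (-0.003 and 0.22). Ccne1 and Ndc80 lie to the right in both arrays, and Cdc6 and Mcm5 to the left in both. For most genes of mitosis KO2 lies to the right of KO1, as it does for 66.9% of all genes tested.

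The kinetochore, checkpoint and APC/C genes held the largest gap between replicates. Bub1b, the checkpoint kinase BubR1, read 1.78 in wild type, 0.705 in KO1 and 3.10 in KO2. Wild type lay between the depleted arrays, which were 1.81 apart on the log2 scale, and a further probe set of Bub1b gave -1.02 and 0.61. Bub1, its partner at the kinetochore, read 1.93, 2.84 and 1.95, so that here only KO1 stood apart. Ube2c, the ubiquitin-conjugating enzyme of APC/C, read 23.5, 24.3 and 47.9, with KO1 close to wild type and KO2 well above both. Cenpa, the histone of centromeres, read 2.80, 1.68 and 3.64, with wild type in the middle. Its other probe set read 2.63, 1.85 and 1.61, below wild type in both depleted arrays and with KO2 below KO1.

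Others of this group were above wild type in both depleted arrays. Ndc80, the microtubule anchor of the kinetochore, read 0.590, 1.28 and 1.91 (log2 difference 1.12, SE 0.58, limma adjusted p = 0.9997). Its wild type value lies below the array median, so this difference is among those that the pseudocount makes smaller. That value is also under the intensity filter of 0.598, which Ndc80 passed only through its depleted arrays. A high difference was therefore favoured by the filter. Ttk, the checkpoint kinase MPS1, read 1.08, 1.42 and 1.97. Cdc20, an activator of APC/C, read 3.90, 6.83 and 6.10 (log2 difference 0.69, SE 0.49), but its other probe sets gave -0.73 and -0.17 in KO1. The brightest probe set of Cdc20 is of the type that Affymetrix marks as open to cross-hybridization (_x_at), and without it and the related _s_at type the difference of Cdc20 was -0.11. Mad2l1, the checkpoint protein MAD2, read 5.74, 6.32 and 6.27 and differed little. The median of the 8 genes was 0.23 in KO1 and 0.67 in KO2.

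Spindle, chromosome and cytokinesis genes were the role group that lay lowest in KO1, with a median log2 difference of -0.40. In KO1, 9 of its 10 genes were below wild type, where 49.8% of all genes tested were above it. In KO2 the median was 0.22, equal to the median over all genes tested. There 9 of the 10 were above wild type, against 69.7% of all genes. Birc5, the gene of survivin in the chromosomal passenger complex, read 7.34, 5.40 and 15.1, with a gap of 1.45 on the log2 scale between the depleted arrays. Cdca8, the gene of borealin in the same complex, read 23.5, 16.9 and 27.4. Kif11, the motor that separates spindle poles, read 5.07, 3.63 and 9.05. In these 3 genes wild type lay between a lower KO1 and a higher KO2.

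Further genes of the group were read as follows. Nusap1 and Tpx2, which bind spindle microtubules, read 6.08, 4.63 and 6.93, and 5.38, 4.22 and 6.14. A dimmer probe set of Tpx2 read 1.32, 2.35 and 1.80, above wild type in both and with KO1 above KO2. Prc1, which bundles microtubules of the central spindle, read 3.29, 2.88 and 4.87, and Kif20a, a motor of cytokinesis, 4.57, 5.10 and 6.33. Anln, the gene of anillin in the contractile ring, read 2.64, 1.47 and 1.91, with wild type above both where Kif20a had it below both (log2 difference -0.58, SE 0.53). A dimmer probe set of Anln gave 0.10 and 0.90, so that its direction depends on the probe set.

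For KO1, 21 of the 46 (45.7%) were higher than wild type, against 49.8% of all genes tested, a share near the background. The median log2 difference was -0.14 against -0.003, and with the mean of probe sets it was -0.08 against -0.02. In KO2, 40 of the 46 were higher, against 69.7%, and the median was 0.37. At least 2-fold higher in KO1 was 1 member (Ccne1), against 3.19% of all genes, and at least 2-fold lower were 2 (Cdc6 and Bub1b), against 3.23%. In KO2, 6 members were at least 2-fold higher (Ccne1, Ndc80, Cdk1, Aurka, Birc5 and Ube2c), or 13%, against 3.57% of all genes. None was at least 2-fold lower there, against 1.64%. These KO2 counts were not corrected for the KO2 median over all genes tested. Measured from that median, 30 of the 46 were higher, against 50% of all genes. At least 2-fold higher were then 2, Ccne1 (1.02) and Ndc80 (1.14), against 1.51% of all genes. Ndc80 passed the intensity filter only through its depleted arrays, so its place in these counts was favoured by the filter. The median is taken over genes of all intensities tested and may not be the shift of genes as dim as these. Cdk1 was then at 0.96, Aurka at 0.85 and Birc5 and Ube2c at 0.79.

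The KO2 median depends on the scaling between arrays. It was 0.15 after the shift of all genes was taken out, 0.18 with the same 75th percentile on each array and 0.12 with quantile normalization. The upper part of KO2 was brighter as deposited, with a 75th percentile of 4.79 against 4.19 in wild type and 4.05 in KO1.

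The depleted arrays were also compared with each other. KO2 was above KO1 for 36 of the 46 genes, against 66.9% of all genes tested, with a median gap of 0.50 on the log2 scale, against 0.22 over all genes. It was at least 2-fold above KO1 for 7 members (15.2%), against 6.55% of all genes. These were Bub1b, Plk1, Birc5, Cdk1, Kif11, Ccnd1 and Cenpa. For Kif11, Ccnd1 and Cenpa this held on the brightest probe set only. KO1 was at least 2-fold above KO2 for 0 members, against 2.5% of all genes. With 1 array on each side this gap has no replicate check.

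**Figure D3:**
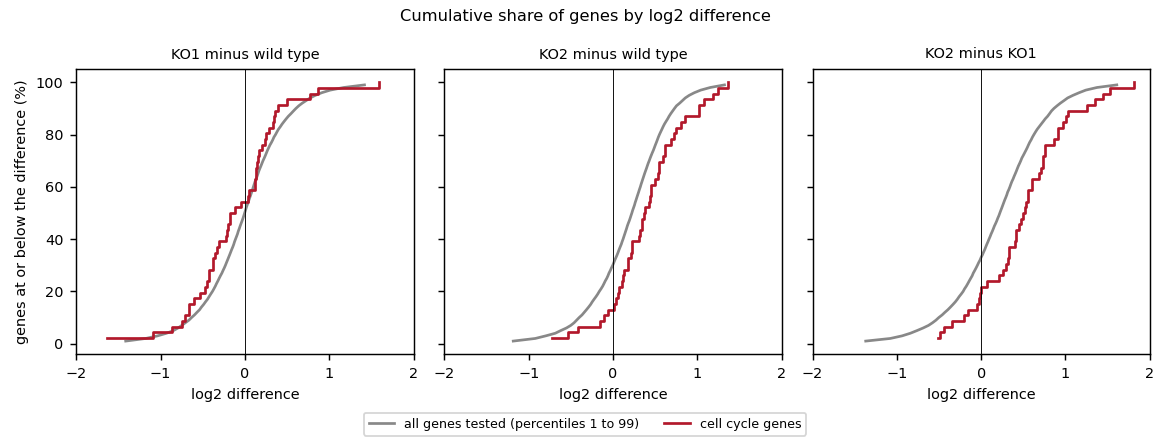
Cumulative share of genes (vertical axis, percent) by log2 difference (horizontal axis) for the 46 cell cycle genes (stepped line) and all 11885 genes tested (smooth line, drawn from percentile 1 to 99). The members lie left of all genes over most of the range in KO1 (median -0.14 against -0.003) and right of them in KO2 (0.37 against 0.22) and between the depleted arrays (0.50 against 0.22).

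Probe sets of the same gene were also compared within each array, which does not replicate the array. The 46 genes had 107 probe sets, of which 91 passed the intensity filter, and 29 genes had at least 2 that passed. For 11 of the 46 the brightest probe set was of the _x_at or _s_at type. All passing probe sets of a gene lay on the same side of wild type for 13 of the 29 genes in KO1 and for 22 in KO2. The share of such genes over the whole array was not computed. Of all genes tested, 49.8% were above wild type in KO1 and 69.7% in KO2, so the counts do not compare the precision of KO1 and KO2. Mcm5 (below wild type in both) and Bub1b (below in KO1, above in KO2) were among the genes whose probe sets lay close together. Top2a was among those that did not, since a dimmer probe set read 0.536, 1.23 and 1.45.

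**Figure D4:**
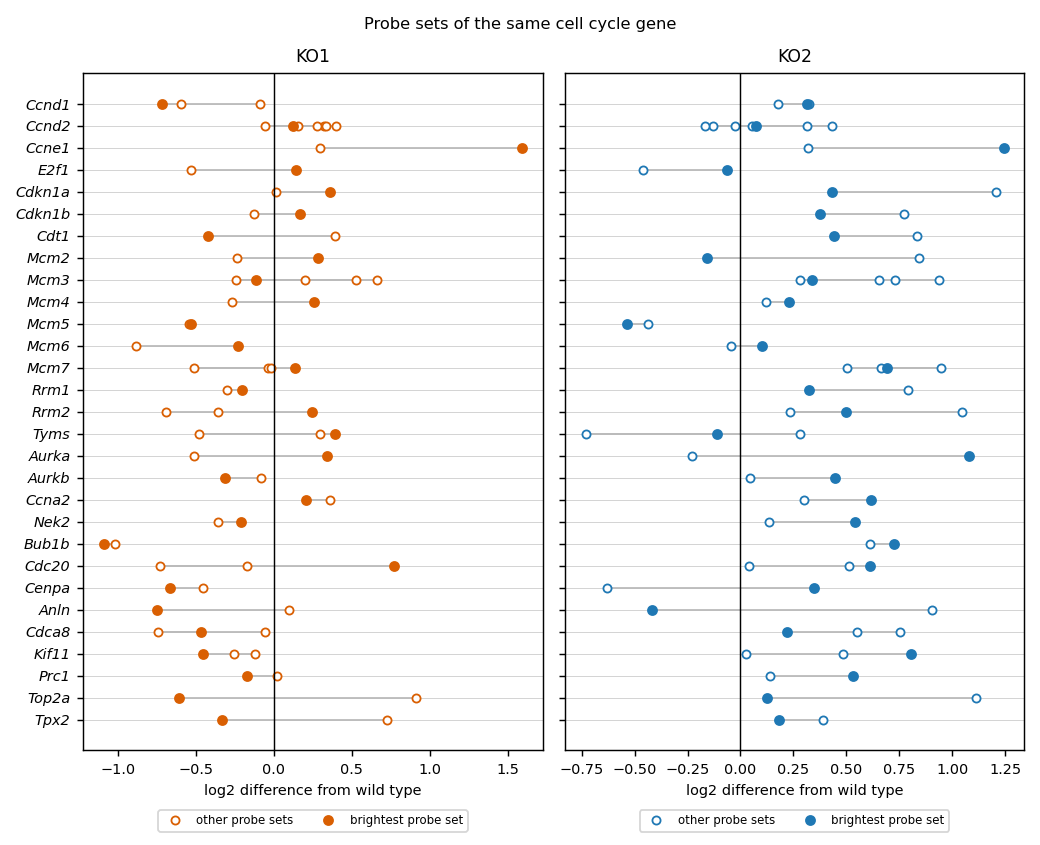
Log2 difference from wild type of every probe set that passed the intensity filter, for the 29 cell cycle genes with at least 2 such probe sets, in KO1 (left) and KO2 (right). Filled points are the brightest probe set and open points the others. In KO1 the probe sets of 13 genes lie on a single side of 0, and in KO2 those of 22 genes. Of all genes tested, 49.8% were above wild type in KO1 and 69.7% in KO2.

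Further genes of the same pathway, from lists made for this report, gave no call either. Of 42 other replication genes tested, limma called 0 (unadjusted p under 0.05 in 0), with medians of -0.10 and 0.15. Mcm10, which starts the helicase, was above wild type in both depleted arrays at 2.15, 3.43 and 4.43. Orc1 and Rfc1, of the origin recognition complex and the clamp loader, were below it at 0.984, 0.514 and 0.460 and at 5.07, 2.68 and 3.54.

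Of 48 other mitotic genes, limma called 0 (unadjusted p under 0.05 in 1), with medians of -0.03 and 0.44. That gene was Cdc25c, the phosphatase that activates CDK1, at 0.358, 1.28 and 3.29 (log2 difference 1.94, SE 0.57, limma adjusted p = 0.442). Its wild type value is close to the pseudocount and under the intensity filter, which Cdc25c passed only through its depleted arrays. Racgap1, of the central spindle, read 2.83, 4.31 and 5.10, above wild type in both. Of 32 other cell cycle regulators limma called 0 (unadjusted p under 0.05 in 0), with medians of -0.03 and 0.25, and Cdk4, the partner of D cyclins, read 13.4, 16.3 and 18.9. In the mitotic list, as among the mitotic members, KO2 lay above KO1 for most genes, 39 of 48, against 66.9% of all genes tested.

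Markers of other cells were read beside these values, since B cells of the follicle also divide. The 15 B cell markers tested had medians of -0.95 in KO1 and 0.19 in KO2, and summed to 112 in wild type, 70.7 and 163. Spib, the brightest of them, is in the M cell list too. None of the 15 was at 0, and their lowest value on any array was 0.124. The gap between the depleted arrays therefore had the same sign for B cell markers as for the cell cycle genes. The median of KO2 minus KO1 was also above 0 over all genes tested (0.22). It was so in every other cell type list except germinal centre B cells (-0.09). The part of B cells in that gap was not tested. Cd79b, of the B cell receptor, chosen after its values were seen, read 7.21, 2.11 and 8.66. Ms4a1 and Cd22, named by rule, were below wild type in both, at 11.1, 4.12 and 6.73 and at 4.11, 1.635 and 2.53. Wild type lay above both depleted arrays for 6 of the 15 markers, against 19.5% of all genes tested. It lay between a lower KO1 and a higher KO2 for 8, against 30.7%, and below both for 1, against 39%. The 6 germinal centre B cell markers tested, of the dividing B cells, had medians of 0.08 and 0.06 and summed to 17.8, 21.0 and 18.2. The 11 T cell markers tested had medians of -0.10 and 0.33 and summed to 26.9, 20.4 and 32.7. The 7 markers of macrophages or dendritic cells tested, of 11 on the array, had medians of -0.03 and 0.54 and sums of 69.8, 68.2 and 89.3. Most of each sum was Lyz2, at 56.8, 55.7 and 70.0. The 6 stromal markers tested, of 11 on the array, had medians of -0.06 and 0.30 and sums of 17.8, 16.4 and 24.8. Most of each of these sums was Vim, at 13.0, 12.3 and 16.6.

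Markers of the epithelium itself had medians of 0.12 and 0.42, absorptive enterocyte markers 0.16 and 0.34, and M cell and follicle epithelium markers 0.08 and 0.61. The ratio of 3′ to 5′ control probe sets of Gapdh, a sign of RNA quality, was 1.83 in wild type, 2.28 in KO1 and 1.54 in KO2. The same ratio of Actb was closer to level, at 1.11, 1.15 and 1.02. Both ratios were therefore highest in the array in which the cell cycle genes were lowest, for Actb by a small amount. The part of RNA quality in that order was not tested.

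**Figure D5:**
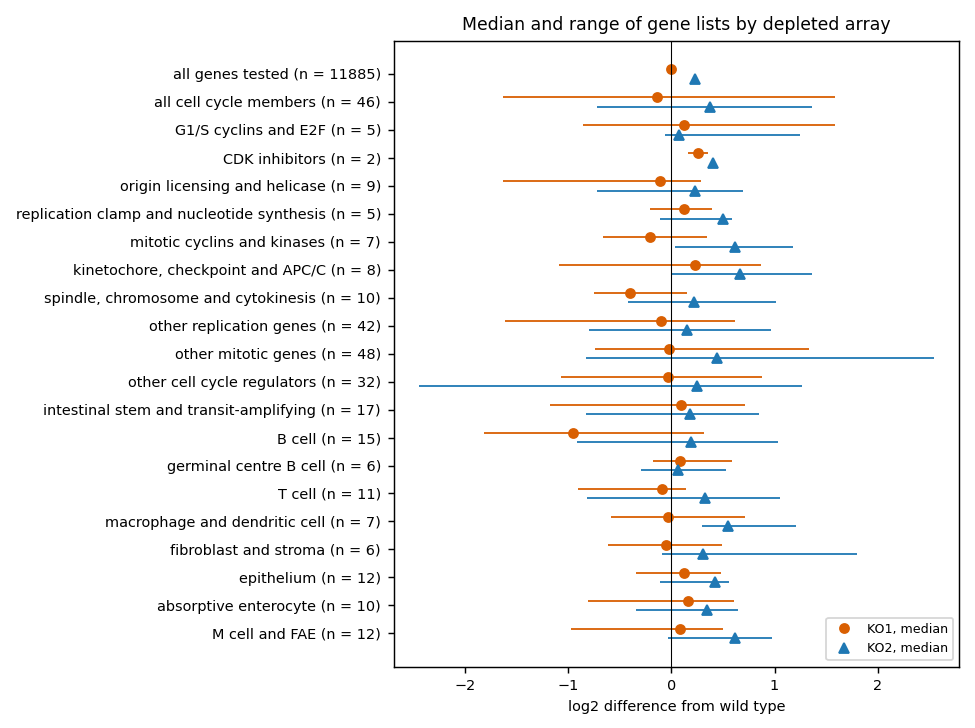
Median (points) and range (lines) of the log2 difference from wild type for the cell cycle genes by role, other cell cycle lists and markers of cell types, in KO1 (circles) and KO2 (triangles), with no range drawn for all genes tested. The B cell markers show the lowest median in KO1 (-0.95), and the kinetochore genes (0.67) the highest in KO2.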

How the data were processed

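Total RNA was labelled as biotinylated cRNA for Affymetrix arrays, per the labels' protocols, and the submitters' processing notes name MAS5 for the deposited intensities. Each array's median over its 45101 probe sets is 1. Values were used as deposited, as log2(value + 0.248), the pseudocount being the 25th percentile of all values. Arrays have no depth, and their number limits the precision.

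Of the probe sets, 34945 had 1 gene symbol in the platform annotation, and 34741 of these matched a RefSeq gene (GRCm38.p6) by Entrez number. A gene took its probe set with the highest mean, and the 11885 genes with a mean of at least 0.598 (the 40th percentile) were tested. Depleted arrays were compared with wild type in R 4.3.3 with limma 3.58.1 (lmFit and eBayes with an intensity trend, Benjamini-Hochberg over all genes tested). The same fit was also run on simulated data, with levels and spread taken from these arrays. The spread comes from KO1 and KO2 alone (1 residual degree of freedom per gene, 600 prior degrees of freedom), and the lone wild type array was taken to have that spread too. The SE and p of a gene therefore follow mostly a spread pooled over genes. Mcm5 and Bub1b had SEs of 0.47 and 0.55, with gaps between the depleted arrays of 0.005 and 1.81. The prior degrees of freedom were 6.54 without the intensity filter and infinite with a pseudocount of 1. Counts at 2-fold use a log2 difference of 1 and no test.

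The members and lists were chosen with earlier results of these data known. Any member could be named. Full values were planned for marker members and for the 5 highest and 5 lowest relative to all genes. They are printed here for the other members too. Further genes came from the lists, up to 4 each by the smaller of their differences in the same direction, with Rbpj and Xist as checks. Genes outside that rule are Gp2, Cd79b, Spib, Lyz2, Vim, Olfm4 and Cdkn1c, chosen after their values were seen. The alternatives were another pseudocount, 2 filters, 2 scalings, the mean of probe sets, eBayes without trend, leaving out each depleted array and, chosen after seeing the data, centring on all genes and leaving out _x_at and _s_at probe sets.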

Additional observations from a re-analysis of the deposited data

How the results depend on the processing

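No member was called under any of the 9 alternative fits. The count of genes called over all genes was 10, and it was 1 without a filter, 6 under a stricter filter (60th percentile), 3 after quantile normalization, 4 after scaling arrays to 1 common 75th percentile and 4 after centring on all genes. The cause was not tested. Ccne1 alone made the count of members 2-fold or more from wild type in KO1 as well as KO2, so the count was 1, and it was 0 with a pseudocount of 1, with the mean of probe sets and without _x_at and _s_at probe sets. Leaving out a depleted array makes it a count over the array that is left, with no test, of 3 (without KO2) to 6 (without KO1). The medians of the members kept their signs under each alternative run for them, from -0.08 to -0.17 in KO1 and from 0.12 to 0.38 in KO2. The mean of probe sets turned Top2a from -0.24 to 0.22, and leaving out _x_at and _s_at probe sets turned Cdc20 from 0.69 to -0.11. The filter at the 60th percentile kept 42 members. No paired analysis was possible because there is 1 wild type array and its label carries no replicate number.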

Other observations

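Markers of the crypt cells that feed the dividing compartment were read in the same way. Of 17 stem and transit-amplifying markers tested, limma called 0 (unadjusted p under 0.05 in 1), and their medians were 0.10 for KO1 and 0.18 for KO2. Ascl2, a stem cell transcription factor, read 6.42 in wild type, 2.70 in KO1 and 3.51 in KO2 (mean log2 difference -1.003 with an SE of 0.50, limma adjusted p = 0.9997), with both depleted arrays below wild type. Lgr5, a stem cell receptor for R-spondins, read 1.04, 1.32 and 1.63, and Axin2, a Wnt target, 7.56, 9.47 and 11.2, both above wild type in the depleted arrays. Olfm4, another stem cell marker, chosen after its values were seen, read 74.7, 53.1 and 73.6.

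Cdkn1c, the gene of the CDK inhibitor p57, chosen after its values were seen, had the largest gap between the depleted arrays among the other cell cycle regulators, at 2.28 in wild type, 4.41 in KO1 and 0.216 in KO2.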
